A study of Mus musculus with 40 samples.

Results

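The transcripts of 10 hepatic carboxylesterase genes (Ces1b, Ces1c, Ces1d, Ces1e, Ces1f, Ces1g, Ces2a, Ces2e, Ces3a and Ces3b) were examined in mouse liver after repeated dosing with TCDD, a tetrachlorinated dioxin that binds and activates the aryl hydrocarbon receptor (AhR). The genes were chosen by symbol from 20 genes named as carboxylesterases among the 55359 gene identifiers counted. All 10 passed the filter on low counts that left 15373 genes for testing. Male C57BL/6 mice were gavaged every 4 days for 28 days, 7 gavages in all, with sesame oil vehicle or with TCDD at 1 of 7 doses, which were 30, 10, 3 and 1 µg/kg and, at the low end, 0.3, 0.1 and 0.03 µg/kg, and each of the 8 groups held 5 mice. Vehicle and treated mice shared strain, sex, supplier and housing, and were 30 days old at the start and 58 days old at collection. Each library came from the frozen liver of 1 mouse, so no cell type was isolated.

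Carboxylesterases are serine hydrolases that cleave esters, amides and acylglycerols. Most hepatic members stay in the lumen of the endoplasmic reticulum, held there by a carboxy-terminal retrieval signal, and hydrolyse drugs, pesticides and stored triacylglycerol, which supplies lipid for very low density lipoprotein assembly. Ces1c differs in that mice secrete it into plasma, where it accounts for much of the esterase activity toward ester drugs.

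Between 15496128 and 20967093 counts fell in genes per library. Cyp1a1, the classic AhR target, was 11.75 log2 units higher at 30 µg/kg than in vehicle (SE 0.27, edgeR adjusted p = 6.83e-30), as a check of the dose labels. The library of replicate 1 at 30 µg/kg stood apart from the other 4 of its group, with a score of 81.7 on the first principal component against 129 to 147. Values at this dose that it moved strongly are given with and without it. Markers of hepatocytes were present. Of the 6 listed symbols 5 matched a gene name, and a symbol without a match says nothing of that gene's level. All 5 were lower at 30 µg/kg. There their summed level was 27181 to 59409 CPM (counts per 1000000, scaled between libraries) against 98118 to 119531 in vehicle. Over the same groups the summed macrophage markers went from 130.03–182 to 452–1123 CPM, stellate cell markers from 157–226 to 358–730 CPM, and cholangiocyte markers from 37.1–48.4 to 67.5–332 CPM, where 4 of the 5 were called higher and Sox9 was called lower. Endothelial markers went from 116–159 to 191–254 CPM, neutrophil markers from 0–1.04 to 6.84–27.0 CPM with 1 of 3 at 0 in every vehicle liver, B cell markers from 2.22–3.08 to 3.24–8.76 CPM and T cell markers from 0.841–1.72 to 1.11–4.60 CPM. Called higher at 30 µg/kg were 6 of 6 macrophage, 3 of 5 stellate cell and 3 of 5 endothelial markers. The same held for 3 of 3 B cell, 2 of 3 T cell and 2 of 2 tested neutrophil markers. Fewer hepatocytes and less RNA per hepatocyte cannot be told apart in whole liver, and the part of these shifts in the carboxylesterase values was not tested.

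In vehicle livers the members differed widely in level. Per kilobase of exon, Ces1c was the highest at 1241 CPM per kilobase, followed by Ces3a at 858, Ces1d at 359, Ces2a at 279, Ces3b at 208, Ces1f at 179.8, Ces1g at 132, Ces1e at 104, Ces2e at 95.7 and Ces1b at 50.1. The ranges of the 5 vehicle mice overlapped between neighbours in this order for Ces2a and Ces3b, for Ces3b and Ces1f, and for Ces1e and Ces2e, while the other neighbours stayed apart. The order at 30 µg/kg was Ces1c at 739, Ces1f at 139.6, Ces1b at 124, Ces2e at 57.7, Ces1d at 51.3, Ces1g at 48.3, Ces2a at 26.5, Ces3a at 11.8, Ces1e at 11.0 and Ces3b at 4.18 CPM per kilobase. Ces1b thus went from the lowest place to the third and Ces3a from the second highest to the eighth. Without replicate 1 at 30 µg/kg, a comparison added after seeing the data, Ces1e at 5.57 stood eighth, Ces3a at 1.15 ninth and Ces3b at 0.254 CPM per kilobase last, and Ces1g at 37.9 stood above Ces1d at 35.1.

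TCDD repressed 8 of the 10 carboxylesterases at 30 µg/kg and induced 1, Ces1b. Throughout, a gene was called when edgeR's quasi-likelihood test gave a Benjamini-Hochberg adjusted p below 0.05 over all genes tested and the fold change was at least 1.5. Of all genes tested, 42.1% were called at 30 µg/kg, with 18.9% of the tested genes lower and 23.2% higher. Next, at 10 µg/kg, 4 members were lower (Ces1d, Ces1e, Ces2a and Ces3a) and Ces1b was higher, against 21.8% of all genes called (8.13% lower and 13.6% higher). Ces1b alone was called at 3 µg/kg, where 6.75% of all genes were called (4.53% higher), and at 1 µg/kg, where 2.78% were called (2.15% higher). No member was called at 0.3, 0.1 or 0.03 µg/kg, where 0.468%, 0.0976% and 0.0195% of all genes were called. The median log2 fold change of the members was -0.72 at 10 µg/kg and -2.13 at 30 µg/kg, beside medians of 0.01 and 0.03 over all genes tested. The 5 hepatocyte markers measured had similar medians, -0.70 and -2.41. The library titles are numbered in 2 runs that each hold every group, and with each run fitted alone 7 and 9 members were called at 30 µg/kg, beside 30.3% and 37.2% of the genes tested in those runs. All 10 log2 differences kept their direction in both, and Ces1c (-0.51) and Ces2e (-0.54) were the members not called in the first run that had been called with both.

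**Figure D1:**
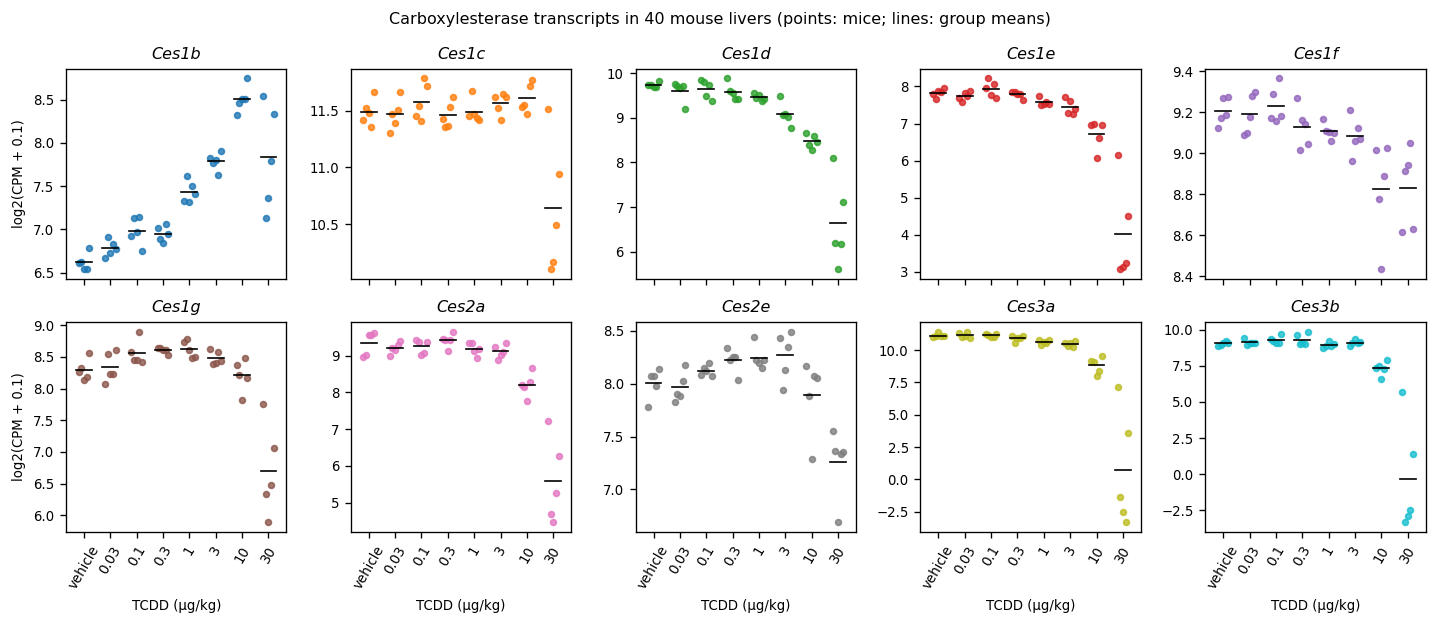
Level of each carboxylesterase transcript as log2(CPM + 0.1) on the y axis, scaled separately in each panel, against TCDD dose on the x axis. Points are the 5 mice of each group and lines are group means. Ces1b is higher with dose up to 10 µg/kg, and 8 of the others have all 5 mice at 30 µg/kg below all 5 vehicle mice, the exception being Ces1c.

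Without reference to a model, CPM scaled between libraries were compared mouse by mouse. The 5 mice at 30 µg/kg all lay below the 5 vehicle mice for 8 members (Ces1d, Ces1e, Ces1f, Ces1g, Ces2a, Ces2e, Ces3a and Ces3b) and all above for Ces1b. No overlap was shown by 37.6% of all genes at this dose. As shares of all gene counts, with no scaling, Ces1f, Ces1g and Ces2e overlapped vehicle at 30 µg/kg, and Ces1f also at 10 µg/kg. At 10 µg/kg 6 members lay wholly below vehicle and Ces1b wholly above, against 23% of all genes. Ces1b was also separate from vehicle at 3 µg/kg, 1 µg/kg and 0.3 µg/kg, where 9.72%, 7.45% and 2.47% of all genes showed no overlap. All 10 members overlapped vehicle at 0.1 and 0.03 µg/kg, where 1.07% and 0.514% of all genes did not. Ces1d and Ces3a lay wholly below vehicle at both 1 and 3 µg/kg, and Ces2e lay wholly above it at 1 µg/kg. Across the 7 steps from vehicle to 30 µg/kg, the slope of log2 level on ordered dose was upward for Ces1b and downward for 7 members in edgeR, and did not pass an adjusted p of 0.05 for Ces1c and Ces2e. Of all genes tested, 57.7% had a slope that passed, 31.5% upward and 26.1% downward.

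Ces1b and Ces1c sit next to each other in a cluster of carboxylesterase genes on chromosome 8. At 30 µg/kg they differed from vehicle in opposite directions. Ces1b read 97.7, 98.1, 93.1, 93.0 and 109.7 CPM in the 5 vehicle livers. At 10 µg/kg the 5 values were 320.3, 352, 365, 363 and 429 CPM, and at 30 µg/kg they were 373, 139.8, 164, 222 and 323 CPM. Every mouse at both doses exceeded every vehicle mouse, and the mice at 30 µg/kg spread more widely than those at 10 µg/kg. The induction was 1.77-fold at 1 µg/kg (log2 0.82, SE 0.15, edgeR adjusted p = 4.48e-04), 2.25-fold at 3 µg/kg, 3.72-fold at 10 µg/kg (adjusted p = 2.67e-12) and 2.48-fold at 30 µg/kg (adjusted p = 2.12e-09). From 10 to 30 µg/kg Ces1b differed by -0.58 on the log2 scale (SE 0.15, edgeR adjusted p = 0.00242), which was 1.498-fold lower and just under the fold threshold. Without replicate 1 at 30 µg/kg the difference was -0.79 and was called.

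Ces1c, the secreted plasma esterase, was level across the lower doses and was repressed at the highest. The vehicle livers read 2739, 2945, 2849, 2626 and 3249.8 CPM, and those at 10 µg/kg read 2965, 3004, 2844, 3359.8 and 3486 CPM. Those at 30 µg/kg read 2934, 1101, 1150.5, 1437 and 1962 CPM, so that replicate 1 lay within the vehicle range and the other 4 below it. Ces1c was repressed 1.68-fold at 30 µg/kg (log2 -0.75, SE 0.16, edgeR adjusted p = 9.32e-05) and by -1.03 on the log2 scale without replicate 1. The 95% interval at 10 µg/kg ran from -0.19 to 0.43 on the log2 scale. The call at 30 µg/kg was lost when libraries were scaled to total counts alone (log2 -0.28), under which the median over all genes was 0.52 at this dose and 0.22 at 10 µg/kg.

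The upstream sequences of this pair are shown because part of the bases before their starts is closely related. Whether these sequences bear on the opposite responses was not tested. Both are written 5′ to 3′ on the minus strand from the RefSeq promoters of build GRCm38.p6, at chr8:93080018-93080267 for Ces1b and chr8:93131284-93131533 for Ces1c, each ending at the base before the annotated start. Capitals mark runs of at least 15 bases that both contain.
Ces1b: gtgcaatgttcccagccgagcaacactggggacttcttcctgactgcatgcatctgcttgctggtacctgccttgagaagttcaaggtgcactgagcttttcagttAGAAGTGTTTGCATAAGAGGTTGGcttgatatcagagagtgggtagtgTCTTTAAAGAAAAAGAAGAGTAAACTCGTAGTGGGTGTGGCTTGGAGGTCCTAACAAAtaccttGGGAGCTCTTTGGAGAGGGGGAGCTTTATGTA
Ces1c: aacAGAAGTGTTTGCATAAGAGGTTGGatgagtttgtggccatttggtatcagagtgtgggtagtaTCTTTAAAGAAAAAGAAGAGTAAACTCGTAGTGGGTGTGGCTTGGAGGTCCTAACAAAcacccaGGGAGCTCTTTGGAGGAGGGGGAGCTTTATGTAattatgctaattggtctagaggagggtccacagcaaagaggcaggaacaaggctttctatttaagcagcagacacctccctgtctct
A global alignment with no penalty for gaps at the ends paired 147 of the 250 bases. Of these paired bases 93.2% were identical, and the longest shared run was 58 bases. In Ces1b the shared region ends at the gene start, whereas in Ces1c it lies further upstream. Upstream sequences of 7 members were compared in 21 pairs, and apart from this pair and that of Ces2a and Ces2e none shared a run of 15 bases. Promoters of Ces1d, Ces1f and Ces3a were not analysed here.

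Ces1d, Ces1f, Ces1g and Ces1e lie in the same cluster. Ces1d, known as triacylglycerol hydrolase, mobilises stored triacylglycerol for lipoprotein assembly, and its transcript fell with dose. It read 852, 855, 827, 821 and 901 CPM in vehicle livers, 719, 532, 545, 519 and 437 CPM at 3 µg/kg, and 406, 335, 311, 385 and 352 CPM at 10 µg/kg. The highest dose gave 276, 73.1, 48.8, 71.9 and 138 CPM, with no overlap between any of these doses and vehicle or between 10 and 30 µg/kg. Ces1d was repressed 2.38-fold at 10 µg/kg (log2 -1.25, SE 0.24, edgeR adjusted p = 9.12e-05) and 7.00-fold at 30 µg/kg (log2 -2.81, SE 0.25, adjusted p = 6.61e-12). The difference at 3 µg/kg was -0.63 on the log2 scale with an edgeR adjusted p of 0.0891 when all 40 libraries shared 1 estimate of the spread, and -0.62 with an adjusted p of 0.00281 when only the 2 groups entered the fit.

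Ces1e, known as egasyn, holds β-glucuronidase in the endoplasmic reticulum. It read 220.3, 201, 236, 233 and 249 CPM in vehicle livers and 124, 127, 66.6, 97.2 and 125 CPM at 10 µg/kg. The mice at 30 µg/kg read 71.3, 8.35, 8.72, 9.28 and 22.4 CPM. All mice at both doses were below vehicle, although replicate 1 at 30 µg/kg exceeded replicate 3 at 10 µg/kg. Ces1e was repressed 2.11-fold at 10 µg/kg (log2 -1.08, SE 0.32, edgeR adjusted p = 0.00793) and 9.50-fold at 30 µg/kg (log2 -3.25, SE 0.34, adjusted p = 2.78e-10), or by -4.22 on the log2 scale without replicate 1. Gusb, which encodes the β-glucuronidase partner of egasyn, was higher at 30 µg/kg by 0.81 on the log2 scale (SE 0.13, edgeR adjusted p = 8.65e-07).

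Ces1g, a hydrolase linked to hepatic triacylglycerol handling, was repressed at the highest dose. It read 308, 319.6, 281, 292 and 379 CPM in vehicle livers, 330.4, 298, 227, 357 and 287 CPM at 10 µg/kg, and 215, 80.7, 59.2, 88.6 and 133 CPM at 30 µg/kg. The values at 10 µg/kg overlapped vehicle, and those at 30 µg/kg all lay below it. Ces1g was 2.74-fold lower at 30 µg/kg (log2 -1.45, SE 0.19, edgeR adjusted p = 3.10e-08), and at 10 µg/kg its log2 difference was -0.08 with a 95% interval from -0.45 to 0.30.

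Ces1f, also called triacylglycerol hydrolase 2, changed the least of the 10 genes at 30 µg/kg. It read 558, 577, 616, 582 and 620.2 CPM in vehicle livers, 518, 438, 346, 474 and 520.5 CPM at 10 µg/kg, and 392, 483, 492, 531 and 396 CPM at 30 µg/kg. Both doses lay below vehicle with no overlap, and their own ranges overlapped. The log2 difference was -0.36 at both doses (SE 0.09, edgeR adjusted p = 0.00246 and 0.00109), under the fold threshold. Between 10 and 30 µg/kg the 95% interval was -0.19 to 0.19 on the log2 scale. Scaled to total counts alone, Ces1f was 0.14 log2 units above vehicle at 30 µg/kg, so its direction depended on the scaling. Replicate 1, the highest of the 5 mice at 30 µg/kg for the 9 other members, was the lowest for Ces1f.

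**Figure D2:**
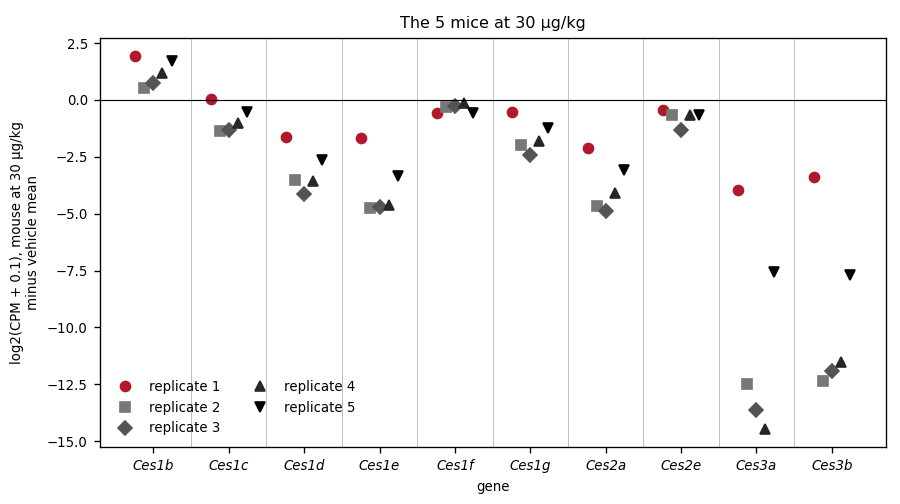
Difference of each mouse at 30 µg/kg from the vehicle mean on the y axis, in log2(CPM + 0.1) units, for the 10 genes on the x axis. Replicate 1 (red circles) is the highest of the 5 mice for every gene except Ces1f, and the 5 mice are spread most widely for Ces3a and Ces3b.

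The second cluster on chromosome 8 carries Ces2a, Ces2e, Ces3a and Ces3b on the plus strand. It is separated from the first, which lies on the minus strand, by 69 other protein-coding genes in the annotation used. Ces2a and Ces2e encode hydrolases of xenobiotic esters and acylglycerols in liver and intestine. Ces2a read 497, 519, 751, 748 and 779.6 CPM in vehicle livers, 291, 285, 217, 310.1 and 408 CPM at 10 µg/kg, and 149, 25.7, 21.9, 37.9 and 77.4 CPM at 30 µg/kg. The 3 groups did not overlap. Ces2a was repressed 2.18-fold at 10 µg/kg (log2 -1.12, SE 0.28, edgeR adjusted p = 0.00181) and 10.5-fold at 30 µg/kg (log2 -3.40, SE 0.30, adjusted p = 4.91e-12), or by -4.02 on the log2 scale without replicate 1.

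Ces2e read 219.7, 268, 269, 252 and 282 CPM in vehicle livers and 347, 299.6, 293, 285 and 299 CPM at 1 µg/kg. At 10 µg/kg it read 287, 237, 157, 269 and 266 CPM, and at 30 µg/kg it read 187, 164, 103, 161.2 and 163 CPM. The mice at 1 µg/kg all lay above vehicle and those at 30 µg/kg all below it, while those at 10 µg/kg spanned the vehicle range. Ces2e was repressed 1.66-fold at 30 µg/kg (log2 -0.73, SE 0.13, edgeR adjusted p = 8.85e-06). At 1 µg/kg the log2 difference was 0.24 with an adjusted p of 0.396 in edgeR, and the interval ran from -0.02 to 0.50. As for Ces1c, the call at 30 µg/kg was lost with scaling to total counts alone (log2 -0.24).

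The upstream sequences of Ces2a and Ces2e are shown as the only other pair that shared a run of at least 15 bases. Ces2a was strongly and Ces2e weakly repressed. The sequences lie at chr8:104733753-104734002 and chr8:104926010-104926259 on the plus strand of GRCm38.p6, and capitals again mark runs of at least 15 shared bases.
Ces2a: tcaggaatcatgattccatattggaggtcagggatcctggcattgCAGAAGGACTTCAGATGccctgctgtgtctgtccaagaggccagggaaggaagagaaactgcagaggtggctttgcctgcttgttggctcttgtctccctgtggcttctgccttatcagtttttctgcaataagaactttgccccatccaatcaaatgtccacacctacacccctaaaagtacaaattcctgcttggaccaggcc
Ces2e: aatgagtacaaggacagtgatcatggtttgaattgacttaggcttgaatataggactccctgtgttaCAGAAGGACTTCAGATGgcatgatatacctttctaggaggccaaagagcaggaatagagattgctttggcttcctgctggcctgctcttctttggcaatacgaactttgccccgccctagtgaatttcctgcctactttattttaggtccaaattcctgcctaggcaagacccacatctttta
The alignment paired 216 bases with 69.9% identity, and 1 run of 17 bases was shared. Ces1c and Ces1g aligned about as closely, with 203 bases at 69.5% identity, but shared no run of 15 bases.

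Ces3a and Ces3b, liver esterases of the endoplasmic reticulum, showed the deepest repression in the family. Ces3a read 2037, 2137, 2776, 2158 and 2165.9 CPM in vehicle livers, 1747, 1371, 1556, 1539 and 1798 CPM at 1 µg/kg, and 1514, 1247, 1472, 1190.3 and 1665 CPM at 3 µg/kg. At 10 µg/kg it read 573, 555, 256, 340.3 and 768 CPM. At 30 µg/kg it read 143, 0.291, 0.0761, 0 and 11.7 CPM, which came from 3099, 7, 2, 0 and 278 counts. From 1 µg/kg upward every mouse lay below every vehicle mouse, and 3 mice at the highest dose were at or near 0. The fitted repression was 4.52-fold at 10 µg/kg (log2 -2.18, SE 0.78, edgeR adjusted p = 0.0294) and 72.8-fold at 30 µg/kg (log2 -6.19, SE 0.94, adjusted p = 5.52e-07). The call at 10 µg/kg was lost without vehicle replicate 3 (edgeR adjusted p = 0.0510) or without replicate 3 (adjusted p = 0.0712) or 4 (adjusted p = 0.0668) at 10 µg/kg. The shared estimate of the spread set its SE, and with only vehicle and 10 µg/kg in the fit the log2 difference was -2.16 with an edgeR adjusted p of 1.09e-05.

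Ces3b followed Ces3a at the high doses. It read 473, 492, 552, 609.6 and 539 CPM in vehicle livers, 459, 534, 659.7, 531 and 559.6 CPM at 3 µg/kg, and 159.6, 176, 97.6, 157 and 245 CPM at 10 µg/kg. At 30 µg/kg it read 51.0, 0, 0.0381, 0.0793 and 2.48 CPM, from 1104, 0, 1, 2 and 59 counts. Values at 3 µg/kg overlapped vehicle and those at 10 and 30 µg/kg lay wholly below. The difference at 10 µg/kg was -1.68 on the log2 scale (SE 0.69) and was not called with all libraries in the fit (edgeR adjusted p = 0.0593), whereas it was -1.66 with an adjusted p of 1.05e-05 with only those 2 groups. Ces3b was 50.1-fold lower at 30 µg/kg (log2 -5.65, SE 0.83, edgeR adjusted p = 2.81e-07). Replicate 1 largely set the fitted size for both genes at this dose, and without it the log2 differences were -9.56 for Ces3a and -9.70 for Ces3b. DESeq2 gave neither gene an adjusted p at 30 µg/kg.

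The upstream sequence of Ces3b is shown as that of the most strongly repressed member in the promoter table. It covers chr8:105083505-105083732 on the plus strand of GRCm38.p6, and the capitals mark the letters TATAAA, which lie close to the outermost annotated start.
Ces3b: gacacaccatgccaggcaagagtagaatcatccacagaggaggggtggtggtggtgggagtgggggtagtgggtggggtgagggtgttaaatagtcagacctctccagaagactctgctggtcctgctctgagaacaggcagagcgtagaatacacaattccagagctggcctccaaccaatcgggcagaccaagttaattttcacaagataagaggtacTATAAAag
Searched on both strands, TATAAA was found upstream of Ces3b and Ces1g among the 7 members and in 13.6% of 32851 promoters of all genes. The AhR core GCGTG occurred in none of the 7 and in 32.4% of all promoters, and the antioxidant response element core TGACNNNGC in none of the 7 and in 12.4%. The nuclear receptor motif AGGTCA occurred upstream of Ces2a and in 16.3% of all promoters. These windows held 250 bases before and 50 bases after each start in the search. The Ces3b sequence shown is only the 228 bases before the outermost annotated start. A missing match says only that the letters are not in the window.

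**Figure D3:**
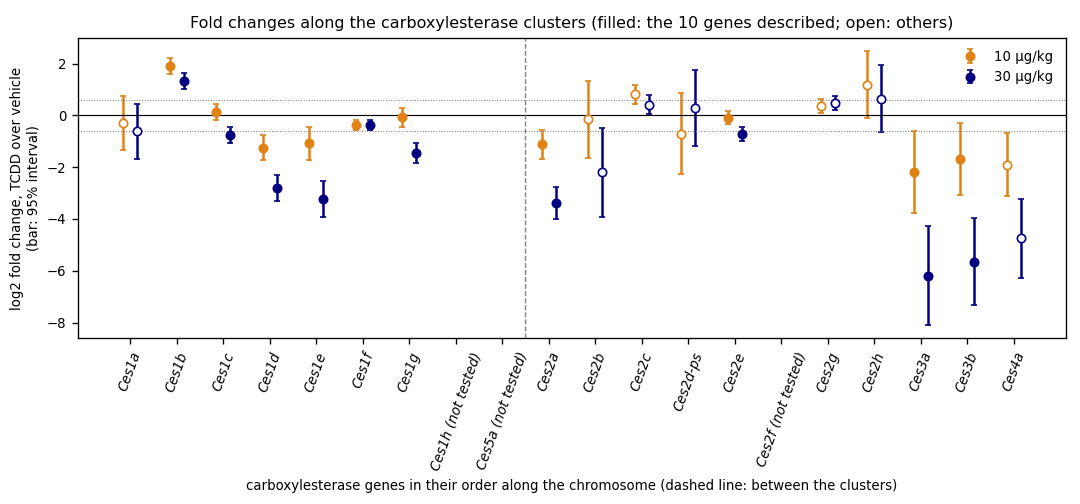
Log2 fold change against vehicle on the y axis, with 95% intervals, at 10 µg/kg (orange) and 30 µg/kg (blue) for carboxylesterase genes in chromosome order on the x axis. Filled symbols are the 10 genes described, open symbols other family members, dotted lines mark a 1.5-fold change, and Ces1b lies above 0 at both doses while Ces3a and Ces3b lie lowest at 30 µg/kg.

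On the log2 scale, most of the repression of the 8 members called lower at 30 µg/kg fell between the 2 highest doses. In CPM, Ces3a, Ces3b, Ces1d, Ces2a and Ces1e lost more up to 10 µg/kg than beyond it. Ces3a, for example, stood at 858 CPM per kilobase in vehicle, 190 at 10 µg/kg and 11.8 at 30 µg/kg. From 10 to 30 µg/kg 8 members were lower, against 21.1% of all genes called and 10.6% called lower, and Ces1b and Ces1f were not called. The steps were largest for Ces3a at -4.01, Ces3b at -3.97, Ces2a at -2.27 and Ces1e at -2.17 on the log2 scale. Without replicate 1 at 30 µg/kg these 4 steps were -7.38 for Ces3a, -8.03 for Ces3b, -2.89 for Ces2a and -3.15 for Ces1e. With all 5 mice the others were -1.56 for Ces1d, -1.38 for Ces1g, -0.87 for Ces1c and -0.64 for Ces2e. The steps of Ces3a (edgeR adjusted p = 0.0748) and Ces3b (adjusted p = 0.0526) were not called with only those 2 groups in the fit. The step of Ces2e was no longer called without replicate 1 at 10 µg/kg or replicate 3 at 30 µg/kg. From 3 to 10 µg/kg, where 6.77% of all genes were called (4.43% higher and 2.34% lower), Ces1b was higher by 0.73 (edgeR adjusted p = 0.00117) and Ces2a lower by -0.88 (adjusted p = 0.0374). The Ces2a step was lost without any of 8 libraries taken out singly, namely replicates 1, 3, 4 and 5 at 3 µg/kg and replicates 1 to 4 at 10 µg/kg.

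The sum of the 10 transcripts was 8671 ± 566 CPM in vehicle livers (SD, n = 5), 7729.9 ± 426 CPM at 3 µg/kg, 5933 ± 717 CPM at 10 µg/kg and 2941 ± 1140.2 CPM at 30 µg/kg. The highest mouse at 10 µg/kg (6886 CPM) and at 30 µg/kg (4791 CPM) lay below the lowest vehicle mouse (8002 CPM). As a share of all gene counts, with no scaling, the 10 genes took 0.804% in vehicle and 0.377% at 30 µg/kg. The make-up of the sum shifted toward Ces1c, which was 33.3 ± 2.09% of it in vehicle and 57.5 ± 3.46% at 30 µg/kg, and toward Ces1f, from 6.82 ± 0.14% to 17.7 ± 7.08%. Ces3a went from 26.0 ± 2.44% to 0.674 ± 1.30%, and Ces1b from 1.14 ± 0.08% to 8.23 ± 1.21%. Without replicate 1 at 30 µg/kg, also added after seeing the data, the sum was 2478 ± 554 CPM (SD, n = 4), and the shares were 0.0950 ± 0.178% for Ces3a, 56.5 ± 3.17% for Ces1c, 20.1 ± 5.39% for Ces1f and 8.35 ± 1.36% for Ces1b.

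**Figure D4:**
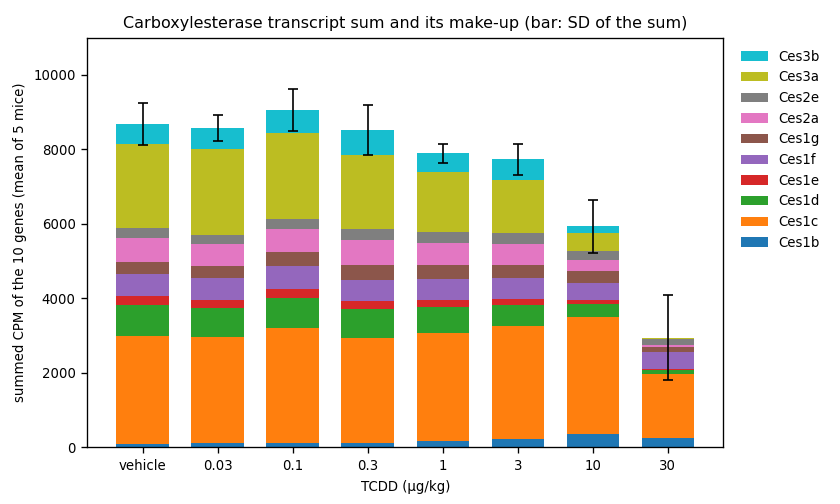
Summed CPM of the 10 carboxylesterase transcripts on the y axis by TCDD dose on the x axis, stacked by gene as means of 5 mice, with the SD of the sum as error bars. The sum is 8671 CPM in vehicle and 2941 CPM at 30 µg/kg, where Ces1c forms most of what remains.

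Because ratios within a library do not depend on the scaling between libraries, each of the 9 other members was set against Ces1d. All 9 log2 ratios differed between 30 µg/kg and vehicle in a two-sided exact permutation test with Benjamini-Hochberg adjustment over the 9 ratios. All share Ces1d, which was itself repressed, while the median log2 fold change over all genes tested was 0.03. The share of all genes whose ratio to Ces1d differs was not computed, so the count of 9 alone says little about the members. For 8 of the ratios the groups of 5 did not overlap, with p = 0.00794, the smallest that 5 against 5 allows, and an adjusted p of 0.00893 in this exact test. The ratio of Ces1e was lower in 4 of 5 mice than in every vehicle mouse, with an exact permutation p of 0.0238. Relative to Ces1d, the log2 ratio was higher at 30 µg/kg by 4.31 for Ces1b, 2.72 for Ces1f, 2.34 for Ces2e, 2.25 for Ces1c and 1.5 for Ces1g. It differed by -0.66 for Ces2a, -0.72 for Ces1e, -7.17 for Ces3b and -8.04 for Ces3a. The last 2 values depend on the 0.5 counts added to every library, since libraries at this dose held 0 counts. Taking out single mice at 30 µg/kg moved them most without replicate 1, to -8.52 for Ces3b and -9.46 for Ces3a, and in the other direction without replicate 2 for Ces3b (-6.19) and replicate 4 for Ces3a (-6.74).

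Of the 10 carboxylesterase genes outside the set, 7 could be tested. Ces2c, which lies in the second cluster, rose at doses below those at which any of the 10 genes described was called. It read 37.1, 60.5, 90.3, 76.0 and 68.5 CPM in vehicle livers, 134, 110.1, 148, 115 and 119.6 CPM at 0.1 µg/kg, and 223, 173, 197, 175 and 179 CPM at 0.3 µg/kg. Its log2 fold change was 0.91 at 0.1 µg/kg (edgeR adjusted p = 0.0275), 1.51 at 0.3 µg/kg, 1.29 at 1 µg/kg, 1.27 at 3 µg/kg, 0.81 at 10 µg/kg and 0.41 at 30 µg/kg, where it was not called. The call at 0.1 µg/kg was lost without vehicle replicate 1 or 2 or without replicate 1, 3 or 5 at that dose, and with total-count scaling Ces2c was called at 30 µg/kg (0.91). Ces4a was lower by -1.91 at 10 µg/kg and -4.75 at 30 µg/kg, from 1.09 to 6.60 CPM in vehicle, and Ces2b by -2.20 at 30 µg/kg, from under 1 CPM in vehicle, a call lost with total-count scaling (edgeR adjusted p = 0.0677). Ces1h, named after its values were seen, had 0 counts in every vehicle liver and 0.231, 2.20, 1.94, 1.70 and 3.54 CPM at 30 µg/kg, so that its mean was at least 10.1-fold higher than vehicle, taken at a floor of 3 counts per library. The other 4 genes tested were not called at any dose, and the other 2 that could not be tested were at or below the floor. The members' transcripts held few stretches of read length in common with other genes, since 2.97% of the 150-base stretches of Ces2a occurred elsewhere, 1.56% of those of Ces3a and 1.58% of those of Ces3b were shared within that pair, and the other 7 members shared none.

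Other enzymes and regulators around the carboxylesterases moved in both directions at 30 µg/kg, where 23.2% of all genes were called higher and 18.9% lower. Of 10 neutral lipid hydrolases, 3 were higher and 5 lower, with Aadac (arylacetamide deacetylase) at -3.18, Pnpla3 at -2.94, Lipc (hepatic lipase) at -1.86 and Abhd6 (a monoacylglycerol lipase) at 2.26 on the log2 scale. Among 8 other ester and epoxide hydrolases 3 were higher and 4 lower, including Cmbl at -1.86, Pon1 (paraoxonase) at -1.55, Bphl at -1.18 and Ephx1 (microsomal epoxide hydrolase) at 1.15. Of 4 partners in the endoplasmic reticulum, Gusb and Kdelr3 (2.06) were higher, Kdelr2 (-0.70) was lower and Kdelr1 was not called, the Kdelr genes encoding receptors of the retrieval signal. Of 10 transcription factors linked to carboxylesterase expression, Nfe2l2 (NRF2) was higher by 2.45 and 5 were lower, including Nr0b2 (SHP) at -3.25, Ppara at -1.87 and Cebpa at -1.65. The other 4 were not called.

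The gene outside the family whose log2 CPM most resembled that of each member across the 40 libraries was found by Pearson's r. This, given as a description over libraries that share the dose series, was 0.994 for Ces3a and 0.993 for Ces3b with C8a, a complement component. It was 0.992 for Ces1e with Car3, 0.989 for Ces2a with Azgp1, 0.984 for Ces1d with Otc (ornithine transcarbamylase), 0.975 for Ces1g with Aldh9a1, 0.958 for Ces1c with Pxmp2, 0.954 for Ces1b with Gm11762, 0.909 for Ces2e with Shpk and 0.871 for Ces1f with Ephx2 (soluble epoxide hydrolase). Among the members themselves r was 0.992 between Ces3a and Ces3b and 0.04 between Ces1b and Ces1c.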

How the data were processed

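Frozen whole liver of 40 mice was sequenced as 150 bp paired-end reads, with 1 library per mouse and 15496128 to 20967093 counts in genes per library. The authors deposited, per library, whole-number counts of reads per Ensembl gene from STAR, and a table of log2 values. Per the submitters' processing notes FastQC 0.11.7, Trimmomatic 0.39 and STAR 2.7.3a were used. The notes name the builds GRCm39 and mm10 without saying which one served these counts, so gene order, exon lengths and promoters come from GRCm38 annotation (GENCODE M21 and RefSeq) through gene identifiers and symbols. The deposited log2 values are regularised by DESeq2's blind variance-stabilising transformation, which could be rebuilt from the counts to within 5.03e-10, for genes with a highest count of at least 5. The unstranded counts were used as deposited, since reads fell on either strand about equally (50.0% to 50.3% on the first).

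Counts were filtered (edgeR 4.0.16, filterByExpr), TMM-normalised (trimmed mean of M-values) and tested by quasi-likelihood with 1 mean per dose over all 40 libraries, without covariates, in R 4.3.3. Calling required a Benjamini-Hochberg adjusted p under 0.05 and a fold change of at least 1.5. The 1.5-fold limit is that of the study's methods, which paired it with a posterior probability from an empirical Bayes method in place of a p-value. CPM are counts per 1000000 TMM-scaled counts. The code was tested on simulated data. The members, the gene lists and the tests were chosen with earlier results of these data known. The named genes were all 10 members, other carboxylesterases that were called, with the rest of them counted, up to 4 genes per list with the largest log2 change at 30 µg/kg, and the most similar genes by Pearson's r. Replicates are separate mice, and no pair of replicates agreed within sampling noise (80 pairs, lowest chi-square 10.2 per degree of freedom). Library titles are numbered in 2 runs, of 19 and 21 libraries, each holding all 8 groups. Whether these were processed separately is not given in the sources used here.

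Alternatives were DESeq2 1.42.0, limma 3.58.1 on the deposited log2 values, other scalings and filters, fits of only the groups compared, each numbering run alone or as a covariate, and leaving out each library. Intervals and floors cover counting error or the spread between mice as stated. The labels give a start age of 30 days, which differs from the study's methods.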

Additional observations from a re-analysis of the deposited data

Results flagged for a closer look

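Within each group of 5 mice, a single mouse was looked for whose gap to its nearest neighbour took more than 0.71 of the group's range in CPM, a limit that chance passes in about 1 in 20 groups. Of 80 groups examined for the 10 carboxylesterases, 7 held such a mouse. The first replicate at 30 µg/kg was the highest for Ces1e (71.3 CPM, next 22.4), Ces3a (143 CPM, next 11.7) and Ces3b (51.0 CPM, next 2.48), and these are 3 genes in 1 library rather than separate events. At 1 µg/kg, replicate 2 was the highest for Ces1c (3273 CPM, next 2847) and replicate 1 for Ces2e (347 CPM, next 299.6). At 0.03 µg/kg, replicate 5 was the lowest for Ces1d (582 CPM, next 808). In vehicle, replicate 3 was the highest for Ces3a (2776 CPM, next 2165.9).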

How the results depend on the processing

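No paired analysis was possible because replicate numbers follow the order of the accessions and tie no mice together. For the contrast of 30 µg/kg with vehicle, 9 members were called whichever library of these groups was left out. Those fits called 39.9% to 44.4% of the genes they tested. DESeq2, total-count scaling and the first numbering run alone each gave 7, DESeq2 because Ces3a and Ces3b had no adjusted p. These called 42.7%, 51.8% and 30.3% of the genes they tested, in that order. In the first run alone Ces1c (-0.51) and Ces2e (-0.54) were lost, and total-count scaling gave -0.28 and -0.24 for them and turned Ces1f to 0.14 (edgeR adjusted p = 0.169). With only the groups compared in the fit, 3 members were called at 3 µg/kg and 6 from 3 to 10 µg/kg. The shares of all genes called in those fits were 7.3% and 7.03%. In the first run alone 2 were called at 10 µg/kg and 0 at 1 µg/kg, from 3 to 10 µg/kg and from 10 to 30 µg/kg. The shares of all genes there were 12.1%, 1.09%, 1.02% and 3.2%, in that order. In the second run alone 0 were called at 1 µg/kg and from 3 to 10 µg/kg, beside 0.475% and 2.21% of all genes. A run holds 2 or 3 mice per group. From 10 to 30 µg/kg, 8 members were called with all libraries, 6 with only the groups compared and with DESeq2, and 7 with total-count scaling. The shares of all genes called were 21.1%, 19%, 21.9% and 26.9%, in that order. The slope on dose passed for 8 members, against 6 with total-count scaling or the first run alone, 7 with the second, 9 with DESeq2 and 10 with limma. Of all genes tested it passed for 57.7%, against 67.9% with total-count scaling and 37.2% with the first run alone. The shares were 45.9% with the second run, 58.5% with DESeq2 and 42.4% with limma. Leaving out single libraries gave 4 to 5 calls at 10 µg/kg, 7 to 9 from 10 to 30 µg/kg and 1 to 2 from 3 to 10 µg/kg. Over all genes these fits called 19.7% to 21.4%, 17.3% to 26.3% and 4.34% to 6.9%, in that order. Under total-count scaling the summed level was 8037 CPM in vehicle, 7997 CPM at 0.03 µg/kg and 8253 CPM at 0.1 µg/kg. It was 6333 CPM at 10 µg/kg and 3772 CPM at 30 µg/kg, so the sum fell under this scaling too. Beyond what these constructions show, the cause was not tested. Low counts limit Ces3a and Ces3b at 30 µg/kg, where 3 of 5 libraries held at most 7 counts. The mice also spread widely, with 3099 counts of Ces3a and 1104 of Ces3b in replicate 1. The SE of both genes at every dose reflects 1 spread shared with the 30 µg/kg group.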
